A study of Mus musculus with 4 samples.

Results

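The genes described here encode the mechanotransduction channel of hair cells and the tip link that pulls on it. They are *Tmc1*, *Tmc2*, *Pcdh15*, *Cdh23*, *Lhfpl5*, *Tmie*, *Cib2* and *Tomt*, and they were taken by symbol from the deposited expression table, in which all 8 were found among 12814 genes. RNA-seq had been performed on epithelial cells sorted from the inner ears of newborn *Atoh1/nGFP* mice, a reporter line on the C57BL/6 background in which an *Atoh1* enhancer drives a nuclear green fluorescent protein (GFP) in hair cells. All 4 populations came from this line and none received a treatment. Cochlear HCs and Vestibular HCs (hair cells) were GFP+ and CD326+, whereas Cochlear ENSCs and Vestibular ENSCs (epithelial non-sensory cells) were CD326+ and GFP-, CD326 being the epithelial adhesion molecule EpCAM. The ENSC gate is thus a mixture of all epithelial cells without the reporter, supporting cells included, and the ears of several mice were pooled for a sort. The table held 1 library per population, so no value below has a replicate error and no test between populations could be made.

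Hair cells turn sound and head movement into current at the tips of their stereocilia. A tip link, made of cadherin 23 at its upper end and protocadherin 15 at its lower end, pulls on a channel complex when the bundle is deflected. TMC1 and TMC2 are the pore-forming subunits of that complex. LHFPL5 and TMIE tie the channel to protocadherin 15 and are needed for its function, CIB2 binds the TMC proteins, and TOMT is required for TMC proteins to reach the bundle. Loss of any of these proteins causes deafness in mice or people, except that the loss of *Tmc2* alone spares hearing because *Tmc1* takes over in the maturing cochlea.

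The value per gene is a quantile-normalized read count, called the signal here. It has a floor of 20, and it is not divided by gene length. Every library held the same set of 12814 signals in another order, with a median of 120, so that sequencing depth is unknown. At the low end, signals just above the floor did not order genes by their own level, and the top of this tied range was 24.25 in Cochlear HCs, 22.75 in Cochlear ENSCs, 30.5 in Vestibular HCs and 20 in Vestibular ENSCs. Where a gene lay in the tied range of a library, its fold is given as at least the ratio to the top of that range. The HC libraries carried the markers of their label. All 8 HC markers of a list that includes *Pou4f3*, *Gfi1* and *Otof* exceeded their ENSC signal by 3-fold or more in each organ, and their summed signals were 35751.5 in Cochlear HCs, 1829.75 in Cochlear ENSCs, 30358 in Vestibular HCs and 1427.25 in Vestibular ENSCs. *Myo6* alone supplied 29920, 1604, 21968 and 1287 of these sums. The 12 markers of supporting cells and non-sensory epithelium summed to 18039, 101437, 14648.5 and 24111 in the same order, but a few genes carried these sums, *Epyc* with 62028.5 of the Cochlear ENSC sum and *Otog* with 10905 of the Vestibular ENSC sum. Of the 12, 4 were at least 3-fold lower in Cochlear HCs than in Cochlear ENSCs and none higher, and 3 were lower and 1, *Sox2*, higher in Vestibular HCs, at 3960.75 against 465.75. Of the neuronal list, 4 of 8 genes were in the table, and *Nefl*, *Nefm* and *Snap25* were also higher in both HC libraries. The fourth, *Stmn2*, was at 30.75 in Cochlear HCs against 81.5 in Cochlear ENSCs and at 22 and 20 in the vestibular pair. The 4 genes had a summed signal of 5697.75 in Cochlear HCs and 6703.75 in Vestibular HCs against 252.5 and 80 in the ENSCs. Mesenchymal markers, 6 of 7 in the table, summed to 1045.75 in Cochlear HCs, 19513.5 in Cochlear ENSCs, 259.5 in Vestibular HCs and 4233.5 in Vestibular ENSCs, although the sort was for epithelial cells.

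Promoter sequence is shown for 4 of the genes, since all 4 were high in both HC libraries while their upstream sequence differed in the motifs of the factors the mouse line and the study turn on, the reporter gene's factor ATOH1 and the RFX family. Each line gives the 250 bases before a RefSeq start site, 5′ to 3′ on the strand of the gene, with matches to the E-box CAGNTG and near matches to the RFX X-box in capitals. The bases come from the RefSeq promoter set of GRCm38.p6, and each was found unchanged in mm9 at the position given below.
Pcdh15: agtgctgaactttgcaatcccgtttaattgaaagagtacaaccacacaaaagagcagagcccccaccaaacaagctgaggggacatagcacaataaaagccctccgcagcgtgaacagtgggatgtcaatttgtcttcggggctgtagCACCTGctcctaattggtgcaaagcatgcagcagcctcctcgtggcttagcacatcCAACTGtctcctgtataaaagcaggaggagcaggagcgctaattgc
Lhfpl5: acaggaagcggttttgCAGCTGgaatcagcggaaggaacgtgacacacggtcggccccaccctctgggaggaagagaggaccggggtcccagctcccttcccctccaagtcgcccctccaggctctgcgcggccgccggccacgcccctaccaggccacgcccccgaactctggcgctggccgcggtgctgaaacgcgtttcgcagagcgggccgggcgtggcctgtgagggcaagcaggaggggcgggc
Tmie: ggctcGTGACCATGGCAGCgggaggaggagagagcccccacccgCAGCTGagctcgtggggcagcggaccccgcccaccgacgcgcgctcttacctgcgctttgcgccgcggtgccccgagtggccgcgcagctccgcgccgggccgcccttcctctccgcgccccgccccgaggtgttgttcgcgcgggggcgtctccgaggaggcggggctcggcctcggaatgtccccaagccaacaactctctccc
Tmc1: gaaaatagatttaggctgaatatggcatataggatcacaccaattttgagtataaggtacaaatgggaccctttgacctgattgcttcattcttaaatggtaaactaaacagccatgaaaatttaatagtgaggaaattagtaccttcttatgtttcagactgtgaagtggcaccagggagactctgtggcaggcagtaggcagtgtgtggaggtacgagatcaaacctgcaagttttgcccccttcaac
The mm9 positions are chr10:73284365-73284614 on the plus strand for *Pcdh15*, chr17:28712414-28712663 on the plus strand for *Lhfpl5*, chr9:110782578-110782827 on the minus strand for *Tmie* and chr19:21028693-21028942 on the minus strand for *Tmc1*. The *Pcdh15* sequence lies inside the gene as annotated in GENCODE, which places the first exon further upstream. GC content of these 250 bases was 50.4% for *Pcdh15*, 70.8% for *Lhfpl5*, 74.8% for *Tmie* and 41.2% for *Tmc1*.

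*Tmc1* and *Tmc2*, the pore subunits, were near or at the floor in both ENSC libraries and well above it in both HC libraries. The *Tmc1* signal was 338.5 in Cochlear HCs, 22.25 in Cochlear ENSCs, 502 in Vestibular HCs and 20 in Vestibular ENSCs. The HC signal was thus at least 14.9-fold the ENSC signal in the cochlea and at least 25.1-fold in the vestibular system. The *Tmc2* signal was 376.5 in Cochlear HCs, 22.25 in Cochlear ENSCs, 187.75 in Vestibular HCs and 20 in Vestibular ENSCs, at least 16.5-fold and at least 9.39-fold higher in HCs. The ENSC values of both genes lie in the tied range, so the 2 genes could not be distinguished from the floor there. *Tmc1* (ENSMUSG00000024749) is on the minus strand of mm9 chr19:20857948-21028692, and *Tmc2* (ENSMUSG00000060332) is on the plus strand of chr2:130020930-130090181.

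Between the HC libraries the pore subunits stood in opposite order. *Tmc1* was 1.48-fold lower in Cochlear HCs than in Vestibular HCs, and *Tmc2* was 2.01-fold higher. Cochlear HCs had a *Tmc1* to *Tmc2* signal ratio of 0.899 and Vestibular HCs one of 2.67. These ratios differed by 2.97-fold, and gene length cancels in that comparison. Per kb of exonic length the ratio was 0.643 in Cochlear HCs and 1.91 in Vestibular HCs, and with the length of the longest transcript it was 0.710 and 2.11. *Tmc2* thus had the higher level per length in the cochlear library and *Tmc1* in the vestibular library under both lengths. Neither single gene reached 3-fold between the HC libraries, and with 1 library each the size of this difference has no error.

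**Figure D1:**
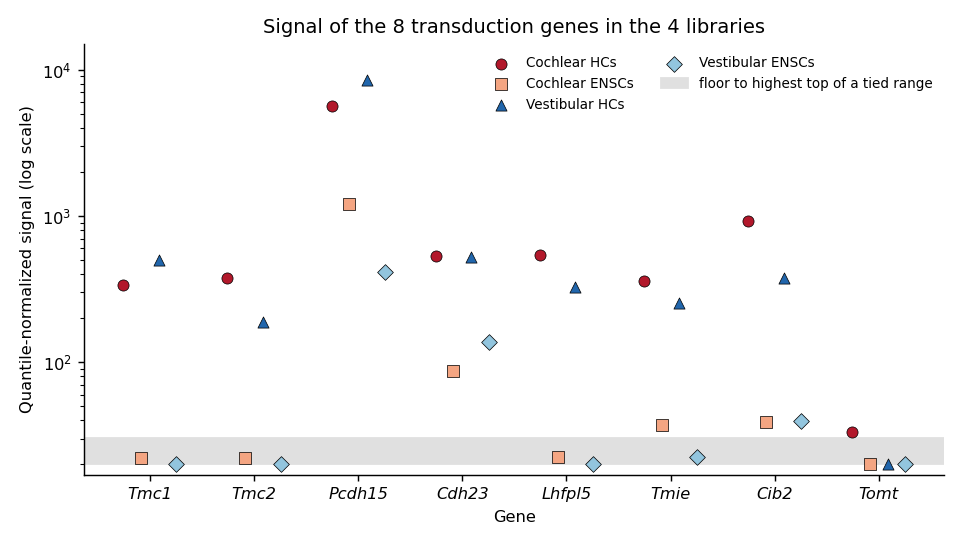
Quantile-normalized signal (log axis) of the 8 genes in Cochlear HCs, Cochlear ENSCs, Vestibular HCs and Vestibular ENSCs, 1 point per library, with a grey band from the floor of 20 to 30.5, the highest top of a tied range. For 7 genes both HC points lie above both ENSC points of the same gene, whereas *Tomt* leaves the floor only in Cochlear HCs, at 33.25.

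Undivided by length, the tip link genes had the highest ENSC signals of the 8, and the other 6 stayed at or below 39.75 in both ENSC libraries. Per kb of exonic length this order did not hold. *Cib2* was at 27.2 in Cochlear ENSCs and 27.7 in Vestibular ENSCs, against 55.0 and 19.0 for *Pcdh15* and 5.12 and 8.06 for *Cdh23*. With the longest transcript *Pcdh15* was at 132 and 45.4, above *Cib2* in both. *Pcdh15*, whose product forms the lower end of the link, had a signal of 5618.25 in Cochlear HCs, 1207.75 in Cochlear ENSCs, 8510.25 in Vestibular HCs and 416.75 in Vestibular ENSCs. HCs were 4.65-fold above ENSCs in the cochlea and 20.4-fold above them in the vestibular system. The vestibular log2 ratio thus exceeded the cochlear one by 2.13, more than for *Cdh23*, *Tmie* or *Cib2*. For *Tmc1*, *Tmc2*, *Lhfpl5* and *Tomt* the ENSC signals were in the tied range, so that difference is not known. *Cdh23*, whose product forms the upper end, had a signal of 530.75 in Cochlear HCs, 86.75 in Cochlear ENSCs, 524.25 in Vestibular HCs and 136.5 in Vestibular ENSCs. It was 6.12-fold higher in HCs in the cochlea and 3.84-fold higher in the vestibular system, the smallest vestibular fold of the 7 genes past 3-fold. Corrected for exonic length and GC content, its log2 ratios were 2.48 for the cochlear pair and 2.71 for the vestibular pair in place of 2.61 and 1.94, so that the order of the organs turned. The HC libraries of both organs held nearly the same *Cdh23* signal, with a ratio of 1.01.

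The ENSC signal of *Pcdh15* was 21.5% of the HC signal for the cochlear pair and 4.90% for the vestibular pair. For *Cdh23* these shares were 16.3% and 26.0%. The 8 HC markers give a measure of HC transcripts in the ENSC gate, and their shares ran from 2.51% to 25.2% in the cochlea, with a median of 4.57%, and from 0.532% to 18.6% in the vestibular system, with a median of 4.92%. Many of these shares are upper limits, since 4 of the 8 markers lay in the tied range in Cochlear ENSCs and 6 of 8 were at the floor in Vestibular ENSCs, where *Otof* and *Myo6* were not. The vestibular median is therefore partly set by the floor. Both tip link genes lay above the median share in the cochlea. They also lay above the shares of *Pou4f3* (2.51%), *Atoh1* (3.17%), *Otof* (3.78%) and *Myo6* (5.36%), the markers above the tied range in Cochlear ENSCs. The cochlear maximum of 25.2% came from *Lhx3*, which was at the floor in Cochlear ENSCs. In the vestibular system *Pcdh15* was within the range and *Cdh23* lay above the whole range, before the correction given above that raised its vestibular log2 ratio to 2.71. The part that HC transcripts played in the ENSC signals was not tested.

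*Pcdh15* (ENSMUSG00000052613) spans chr10:72562090-74112482 on the plus strand, with 21940 exonic bases over 36 annotated transcripts, and *Cdh23* (ENSMUSG00000012819) spans chr10:59765496-60159238 on the minus strand, with 16939 exonic bases over 17 transcripts. A pseudogene entry of the same name covers 2.13% of the exonic bases of *Pcdh15*. The *Pcdh15* signal was 10.6-fold that of *Cdh23* in Cochlear HCs and 16.2-fold in Vestibular HCs. Per kb of exonic length the ratio was 8.17 and 12.5, and with the longest transcript 12.4 and 19.0. *Pcdh15* was therefore the more abundant per length in both HC libraries, and its excess was 1.53-fold greater in the vestibular library.

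*Lhfpl5*, *Tmie* and *Cib2*, the accessory subunits, were all higher in HCs of both organs and all higher in Cochlear HCs than in Vestibular HCs. The *Lhfpl5* signal was 540 in Cochlear HCs, 22.5 in Cochlear ENSCs, 326.75 in Vestibular HCs and 20 in Vestibular ENSCs. It was at least 23.7-fold and at least 16.3-fold higher in HCs. The *Tmie* signal was 357 in Cochlear HCs, 37.25 in Cochlear ENSCs, 255.5 in Vestibular HCs and 22.5 in Vestibular ENSCs, which is 9.58-fold and 11.4-fold higher in HCs. Its log2 ratios were 3.26 and 3.51, and 3.45 and 4.51 once corrected for exonic length and GC content. The *Cib2* signal was 927.75 in Cochlear HCs, 39 in Cochlear ENSCs, 376.75 in Vestibular HCs and 39.75 in Vestibular ENSCs, which is 23.8-fold and 9.48-fold higher in HCs. The ENSC signals of *Cib2* were nearly equal, and its vestibular log2 ratio was lower than the cochlear one by 1.33, with HC signals that differed by 2.46-fold. After the correction its log2 ratios were 4.77 and 3.99 in place of 4.57 and 3.24, so that the organs differed less. The 2.46-fold was the largest ratio between the HC libraries among the 8 genes. *Lhfpl5* was 1.65-fold and *Tmie* 1.40-fold higher in Cochlear HCs.

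*Lhfpl5* (ENSMUSG00000062252) lies on the plus strand of chr17:28712663-28720538 and shares no exonic base with another gene. *Tmie* (ENSMUSG00000049555) lies on the minus strand of chr9:110768215-110782617, and 8.71% of its 2802 exonic bases overlap *Als2cl* on the opposite strand. *Cib2* (ENSMUSG00000037493) lies on the minus strand of chr9:54392601-54408025, and 15.8% of its 1433 exonic bases overlap *Sh2d7* on the opposite strand. Whether reads were counted by strand is not given in the sources used here. Neither partner has a row in the table used here, so its share of these signals cannot be measured.

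*Tomt*, which brings the TMC proteins to the bundle, was the exception. Its signal was 33.25 in Cochlear HCs and 20, the floor, in each of the other 3 libraries. The cochlear fold was at least 1.46 and fell short of 3-fold, and no fold can be given for the vestibular system, where both libraries were at the floor. *Tomt* (ENSMUSG00000078630) lies on the minus strand of chr7:109046887-109054873, and 69.4% of its 2854 exonic bases overlap *3200002M19Rik* on the opposite strand. That gene had signals of 121.75 in Cochlear HCs, 53.25 in Cochlear ENSCs, 76.5 in Vestibular HCs and 25.75 in Vestibular ENSCs. Without strand, reads in the overlap may have been given to neither gene or to both, so the *Tomt* signal is uncertain.

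Across the 8 genes, 7 were at least 3-fold higher in Cochlear HCs than in Cochlear ENSCs and none was 3-fold lower. Over all genes 8.39% were at least 3-fold higher and 9.2% at least 3-fold lower. The same 7 genes were at least 3-fold higher in Vestibular HCs and none was lower, where 13.8% of all genes were higher and 14.3% lower. The 8 genes had a median log2 ratio of 3.59 in the cochlea and 3.37 for the vestibular pair, against 0 and -0.0045 for all genes. The log2 ratios of the 7 genes ran from 2.22 for *Pcdh15* to 4.58 for *Lhfpl5* in the cochlea and from 1.94 for *Cdh23* to 4.65 for *Tmc1* in the vestibular system. Both upper values rest on ENSC signals in the tied range or at the floor. Against the top of the tied range the cochlear value of *Lhfpl5* was at least 4.57, beside 4.57 for *Cib2*. The vestibular calls of *Tmc2* and *Tmie* were lost with a floor of 100, and those 2 and the call of *Cdh23* were lost when 100 was added to every signal.

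**Figure D2:**
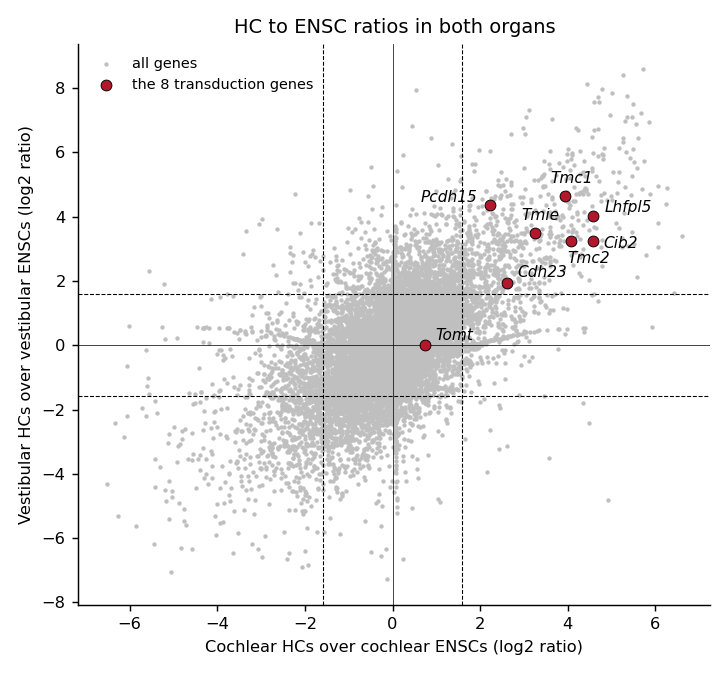
Log2 ratio of HCs to ENSCs in the cochlea (x axis) and in the vestibular system (y axis) for all 12814 genes (grey) and the 8 transduction genes (red), with dashed lines at 3-fold. Of the 8 genes, 7 lie past 3-fold on both axes, *Pcdh15* is well above its cochlear ratio of 2.22 at 4.35 on the vestibular axis, and *Tomt* is at 0.73 and 0.

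None of the 8 genes differed by 3-fold between Cochlear HCs and Vestibular HCs, a difference that 4.21% of all genes showed toward the cochlea and 5.09% toward the vestibular system. The log2 ratio of cochlear to vestibular HCs ran from -0.60 for *Pcdh15* to 1.30 for *Cib2*, with a median of 0.60, or 0.30 with *Tomt* at its bound. *Cib2*, *Tmc2*, *Lhfpl5* and *Tmie* were higher in the cochlear library, *Lhfpl5* by 0.72 and *Tmie* by 0.48. *Tmc1* and *Pcdh15* were lower there, at -0.57 and -0.60, and *Cdh23* was level at 0.02. The ratio of the *Tmc1* to the *Cib2* signal was 3.65 times as high in the vestibular HC library, that to *Lhfpl5* 2.45 times and that to *Tmie* 2.07 times. A library of a whole organ averages over its HC types and their stages, so fewer cells of a type and less RNA per cell cannot be told apart.

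Nor did any of the 8 genes differ by 3-fold between the ENSC libraries, as 7.8% of all genes did toward the cochlea and 7.94% toward the vestibular system. These calls numbered 999 higher and 1018 lower, and 974 and 629 once the ratios were corrected for exonic length and GC content. *Pcdh15* came closest on the deposited signals, 2.90-fold higher in Cochlear ENSCs, a log2 ratio of 1.54 that became 1.37 after the correction. *Cdh23* was 1.57-fold higher in Vestibular ENSCs, the opposite direction, and its log2 ratio of -0.65 became 0.25 after the same correction. *Tmie* was 1.66-fold higher in Cochlear ENSCs, and its log2 ratio of 0.73 became 1.45 after the correction. Its signals of 37.25 and 22.5 were near the floor, and with a floor of 50 its log2 ratio was 0. That of *Pcdh15* stayed at 1.54 with this floor, so *Tmie* is not placed above *Pcdh15*. *Cib2* was level at a ratio of 1.02 on the deposited signals, and its log2 ratio of -0.03 became 0.50 after the correction. *Tmc1*, *Tmc2*, *Lhfpl5* and *Tomt* were within the tied range or at the floor in both.

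Levels can be compared between genes only per length. Per kb of exonic length the signal in Cochlear HCs was 647 for *Cib2*, 429 for *Lhfpl5*, 256 for *Pcdh15*, 127 for *Tmie*, 117 for *Tmc2*, 75.1 for *Tmc1*, 31.3 for *Cdh23* and 11.7 for *Tomt*. *Cib2* lay above 97.0% of 11818 protein-coding genes on this scale and *Cdh23* above 46.0%. In Vestibular HCs the order was *Pcdh15* at 388, *Cib2* at 263, *Lhfpl5* at 259, *Tmc1* at 111, *Tmie* at 91.2, *Tmc2* at 58.3, *Cdh23* at 30.9 and *Tomt* at 7.01. *Tmc1* was in the sixth place in the cochlear and in the fourth in the vestibular library, also with the length of the longest transcript. The place of *Pcdh15* depends on the length used. With the longest transcript its signal per kb was 612 in Cochlear HCs, between *Cib2* at 647 and *Lhfpl5* at 433, and 927 in Vestibular HCs, where it was first under both lengths. Exonic length counts every annotated exon once, so it exceeds the length of any single transcript for genes with many isoforms. Neighbours such as *Cib2* and *Lhfpl5* in Vestibular HCs cannot be ordered without replicates.

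**Figure D3:**
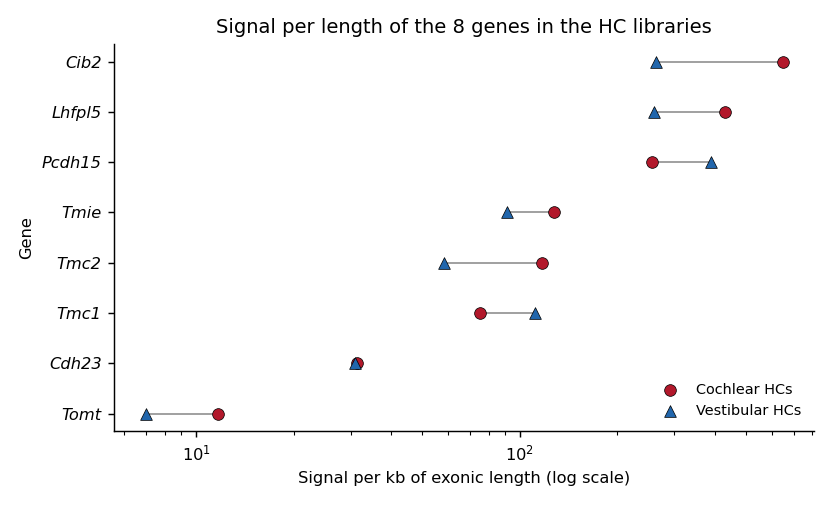
Signal per kb of exonic length (log axis) of the 8 genes in Cochlear HCs (circles) and Vestibular HCs (triangles), 1 point per library, ordered by the cochlear value. *Cib2* is highest in the cochlear library at 647 and *Pcdh15* in the vestibular library at 388, and the points of *Cdh23* coincide at 31.3 and 30.9.

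A list of 16 genes, called partners here, was examined, of which 15 were in the table. Not all of their products work beside the channel, since *Piezo1* and *Piezo2* encode separate mechanosensitive channels. The table carries *Piezo1* and *Piezo2* under the older symbols *Fam38a* and *Fam38b*. Cochlear HCs exceeded ENSCs by 3-fold for 11 of them and fell below for none, and Vestibular HCs did so for 10 and fell below for 2, against the shares of all genes given above. Their median log2 ratio was 4.27 for the cochlear pair and 2.48 for the vestibular pair. *Myo7a*, a motor of the upper tip link complex, had a signal of 1329.75 in Cochlear HCs, 27.5 in Cochlear ENSCs, 1756.25 in Vestibular HCs and 20 in Vestibular ENSCs. *Myo15*, the motor that carries whirlin to stereocilia tips, followed at 688.5, 26.75, 1171 and 20. *Loxhd1*, which maintains transduction in mature HCs, was at 1272.25, 29.75, 1128 and 20. These 3 genes and *Clrn1*, *Grxcr1* and *Grxcr2*, all needed for the hair bundle, had HC signals at least 19.0-fold those of ENSCs in either organ and differed by at most 1.70-fold between the HC libraries.

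*Atp2b2*, the calcium pump of the bundle, also had ENSC signal above the tied range. Its signal was 2099.75 in Cochlear HCs, 447.5 in Cochlear ENSCs, 1783 in Vestibular HCs and 127.75 in Vestibular ENSCs, with log2 HC to ENSC ratios of 2.23 and 3.80. *Whrn*, the scaffold whirlin, was lower in signal, at 66, 20, 77.5 and 24.25. It was counted as 3-fold higher in the cochlea from its ratio to the floor, although the ratio to the top of the tied range was 2.90. *Pdzd7*, a scaffold of the ankle links, was at 121.25, 20.5, 55 and 28.75, and only its cochlear ratio passed 3-fold. *Ush1c*, which encodes harmonin of the upper tip link complex, was at 240, 81.25, 641.75 and 471.75. It fell just short of 3-fold in the cochlea at 2.95 and had a vestibular ratio of 1.36.

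*Pkhd1l1*, *Piezo2* and *Cib3* separated the HC libraries. *Pkhd1l1*, a stereociliary coat protein, had a signal of 5687.75 in Cochlear HCs, 66.25 in Cochlear ENSCs, 62.25 in Vestibular HCs and 20 in Vestibular ENSCs, and its cochlear HC signal was 91.4 times the vestibular one. *Piezo2*, which carries the reverse-polarity current of immature HCs, was at 1467.25, 60.25, 172.25 and 57.5, 8.52-fold higher in Cochlear HCs. *Cib3*, a close relative of *Cib2* that also binds TMC proteins, was at the floor in Cochlear HCs and in both ENSC libraries and at 111.5 in Vestibular HCs, at least 4.60-fold above Cochlear HCs. *Cib2* was thus 2.46-fold higher in Cochlear HCs while *Cib3* left the floor only in Vestibular HCs. *Myo1c*, an unconventional myosin, and *Piezo1*, a mechanosensitive channel, were the 2 genes lower in Vestibular HCs than in Vestibular ENSCs. *Myo1c* was at 22.5, 36.25, 26.5 and 159.25 and *Piezo1* at 26, 39.75, 28.25 and 302. Of the ENSC libraries, the cochlear one held at least 3-fold more *Pkhd1l1* and *Atp2b2* and at least 3-fold less *Ush1c*, *Myo1c* and *Piezo1*.

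Of 14 paralogues of the TMC, LHFPL and CIB families, 8 were in the table, and 1 of them was past 3-fold in HCs of both organs. *Cib3*, whose values are given above, belongs to both lists and is counted in each. Cochlear HCs exceeded ENSCs by 3-fold for 1 paralogue and fell below for none, and Vestibular HCs did so for 4 (*Lhfpl4*, *Lhfpl2*, *Cib3* and *Tmc7*) and fell below for 1 (*Tmc4*). Over all genes the shares were 8.39% higher and 9.2% lower for the cochlear pair, to which 1 of 8 is close, and 13.8% and 14.3% for the vestibular pair. The median log2 ratio was 0.26 for the cochlear pair. For the vestibular pair 4 genes lay at 1.92 (*Tmc7*) or above and 4 at -1.01 (*Tmc6*) or below, so that the median of 0.46, or 0.76 with tied values at their bounds, falls in the gap between them and would turn negative without any 1 of the 4 positive genes. *Lhfpl4*, known as a partner of the GABA-A receptor, was the paralogue higher in HCs of both organs, with signals of 526.75 in Cochlear HCs, 22.5 in Cochlear ENSCs, 853.75 in Vestibular HCs and 20 in Vestibular ENSCs. *Lhfpl2* was at 633.5, 268.25, 3338.25 and 355, past 3-fold in the vestibular system, and its vestibular HC signal was 5.27 times the cochlear one. *Tmc7* had signal in all libraries, at 254.25, 245.25, 180.75 and 47.75, and passed 3-fold in the vestibular system through its low ENSC value. *Tmc4* was at 80.75, 58, 44 and 169.25 and was 3.85-fold lower in Vestibular HCs than in Vestibular ENSCs. *Tmc6*, *Lhfp* and *Cib1* stayed at or below 51.5 in every library.

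**Figure D4:**
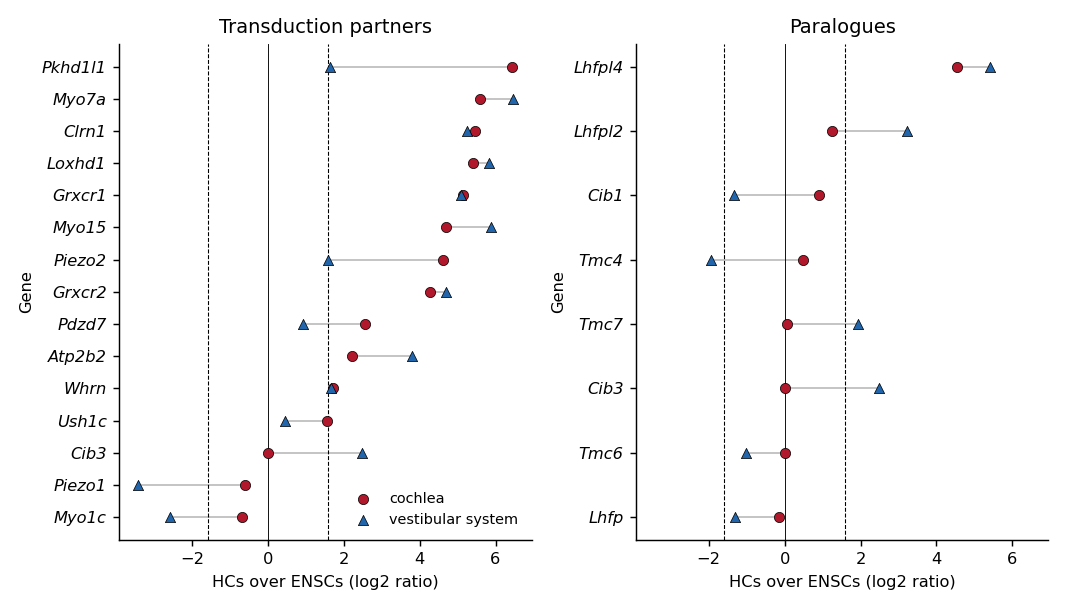
Log2 ratio of HCs to ENSCs in the cochlea (circles) and the vestibular system (triangles) for the 15 genes of the partner list (left) and the 8 paralogues (right) in the table, with dashed lines at 3-fold. Most partners lie right of the 3-fold line in both organs, with *Pkhd1l1* and *Piezo2* displaced to the right in the cochlea, whereas *Lhfpl4* is the paralogue that lies past 3-fold in both.

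The genes nearest in pattern to each of the 8 were found among 6726 protein-coding genes that reached a signal of 200, by the distance between log2 signals over the 4 libraries after each gene's mean was removed. *Tomt* was left out because its highest signal was under 100. *Trnp1*, *Insc* and *Chrna10*, a subunit of the HC acetylcholine receptor, were nearest to *Tmc2*, at distances of 0.144 to 0.174. *Chrna10*, *Camk2b* and *Insc* were nearest to *Cib2*, and *Tmc2* ranked sixth for *Cib2* at 0.352, the closest pair within the 8. *Acss2* at 0.134, *Gm7173* and *Lrrc48* were nearest to *Tmc1*. *Calb2*, the calcium buffer calretinin, at 0.215, *Slc12a5* and *Herc6* were nearest to *Lhfpl5*, and *Bbs1*, *Intu* and *Lnx2* to *Tmie*, the first at 0.272. *Phtf2* at 0.240, *Nme5* and *Pld1* were nearest to *Pcdh15*. *Cdc42bpa* at 0.114, *Wwc1* and *Tmem206* were nearest to *Cdh23*, which was the farthest from *Lhfpl5* at 2.17. These lists depend on the measure. With Pearson correlation in place of distance, 1 of the 3 nearest genes was kept for *Tmc1* and for *Tmie* and 0 of 3 for each of the other 5 genes. The distances are a description over 4 libraries, and many pairs share values at the floor.

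Exonic GC content was 42.9% for *Pcdh15*, 43.8% for *Tmc1*, 50.4% for *Tmc2*, 51.9% for *Tomt*, 53.9% for *Lhfpl5* and *Cib2*, 55.4% for *Cdh23* and 55.9% for *Tmie*, around a median of 48.8% for all genes. Across genes the vestibular HC to ENSC ratio fell with GC content, with a Spearman rho of -0.395 over 10358 genes, and the cochlear ratio hardly did, at -0.0400 over 10722 genes. The ratio of Cochlear to Vestibular ENSCs had a rho of -0.453 over 10475 genes and that of Cochlear to Vestibular HCs 0.0215 over 10850 genes, so that both trends involve the Vestibular ENSC library, which enters every vestibular HC to ENSC fold given here. The part of GC content in those folds was not tested beyond the correction. Genes are not independent replicates, and all of them come from the same 4 libraries. *Pcdh15* and *Tmc1*, with the lowest GC content of the 8, also had the largest vestibular log2 ratios as computed before correction. Those of *Tmc1*, *Tmc2* and *Lhfpl5* are lower limits, from Vestibular ENSC signals at the floor, so this order is not settled. After correction for length and GC content the vestibular log2 ratio of *Pcdh15* was 3.74 in place of 4.35 that of *Tmie* 4.51 in place of 3.51, and that of *Cib2* 3.99 in place of 3.24. *Lhfpl5* moved from 4.03 to 4.81, beside a corrected cochlear value of 4.79, and *Tmc1* moved to 4.19. These values rest on ENSC signals in the tied range or at the floor, so they cannot be ranked or compared between organs. The 7 genes stayed past 3-fold in both organs.

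In the RefSeq promoters, 250 bases before to 50 after each start, 7 of the 8 genes had an entry, *Tmc2* being the other, and *Tomt* had 2. The E-box CAGNTG, the motif of ATOH1, was searched on both strands and was present in *Pcdh15*, *Lhfpl5*, *Tmie* and *Tomt*, in 4 of 7 genes, while 51.4% of all 32851 promoters held it. The RFX half-site GTTNCC was present in *Cdh23* and *Tomt*, against 45.3% of all promoters. None of the 7 held the full X-box, a half-site followed by its reverse complement at most 3 bases on, which 0.804% of all promoters held. With up to 2 mismatches in the 10 fixed bases and 2 bases between the half-sites, a search added after the data were seen, *Tmie* and *Tomt* matched, against 13.9% of all promoters. The *Tmie* match, in capitals near the start of its sequence above, lies 245 to 232 bases before the start, apart from the E-box CAGCTG at 206 to 201. These are matches of letters only, and the window says nothing about binding. The paper lists *Tmie* among its putative RFX targets, from a motif search of its own over another interval around the start. By the start used here, the near match in *Tmie* lies upstream of that interval. The searches here do not test that listing.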

How the data were processed

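RNA of the 4 sorted populations was sequenced, 1 library each. The labels name polyadenylated RNA as the molecule, whereas the methods start from total RNA amplified with the NuGEN Ovation system and describe no selection step for these libraries. The authors deposited 1 signal for each gene and library. It derives from TopHat alignment of the leading 50 nt of the reads to mm9 and HTSeq counting on ENSEMBL genes, with quantile normalization and a floor of 20. The paper sets the floor after the normalization, whereas the label of the deposited values names the floor first. Which order was used was not tested. Tool versions, the annotation release and whether counting used strand are not given in the sources used here. The labels and methods name different RNA extraction kits. Triplicates are mentioned in the design text, but the table used here has 1 column per population. The non-HC columns were assigned to the ENSCs of their organ. Quantile normalization gives every library the same distribution, so a change in total RNA is invisible, and folds can be compressed where 1 library alone gains signal. The calculation of ratios was tested on simulated data.

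Ratios were computed from the deposited signals over all genes with no pseudocount, and a ratio of at least 3 was called. Of 12814 genes, 12799 matched GENCODE M1 on NCBIM37 (mm9), which gave positions, exonic lengths and GC content. A tied range ends at the last low value before the genes' highest signal in the other libraries, which climbs along it, drops back by a factor of 2. The length and GC correction was a lowess fit with a fraction of 0.3. Python 3.11.15, numpy 2.4.6, pandas 2.3.3, statsmodels 0.14.6 and matplotlib 3.10.9 were used. The genes named are the 8 genes, every partner and paralogue present in the table and, for each of the 8 whose signal reached 100, its 3 nearest genes. The marker lists for blood and endothelium and for melanocytes had no gene in the table, macrophages had 1 of 4 (highest signal 24.75), both epithelial markers were present (summed signals 7019.75, 8229, 1317.75 and 10819 in Cochlear HCs, Cochlear ENSCs, Vestibular HCs and Vestibular ENSCs), and Schwann cell markers summed to 928.75, 2030.5, 487.25 and 3378. An item of the paralogue list is not reported here. The genes and lists were chosen with earlier results of these data known.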

Additional observations from a re-analysis of the deposited data

Results flagged for a closer look

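Of the partners and paralogues, 2 genes had opposite signs in the 2 organs, by ratios of single libraries, so that the difference was not tested. The log2 ratio of HCs to ENSCs of *Tmc4* was 0.48 for the cochlear pair and -1.94 for the vestibular pair. *Cib1* had 0.91 and -1.35, both from a value in a tied range, the Cochlear ENSC signal of 20 and the Vestibular HC signal of 20.25. Against the tops of those ranges the HC signal was higher by at least 1.65-fold for the cochlear pair and lower by at least 1.69-fold for the vestibular pair.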

How the results depend on the processing

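No value has a replicate error, depth is unknown, and low signals are tied, which limits every statement on *Tomt* and on the ENSC levels of *Tmc1*, *Tmc2* and *Lhfpl5*. No paired analysis was run, since each population had 1 library. The count of 7 of the 8 genes higher in Cochlear HCs was the same with a floor of 50 or 100, a pseudocount of 20 or 100, centring on the median, tied values at their top, and the length and GC correction. In the vestibular system it was 5 with a floor of 100 and 4 with a pseudocount of 100, and 7 under the other 5 settings. At 2-fold, 2 of the 8 (*Tmc2* and *Cib2*) were higher in Cochlear than in Vestibular HCs, and 1 (*Pcdh15*) in Cochlear than in Vestibular ENSCs, where 10.5% and 17.3% of all genes were.

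Over all genes, the numbers higher and lower in Cochlear HCs than in Cochlear ENSCs were 522 and 565 with a floor of 100, 394 and 406 with a pseudocount of 100, 2110 and 2232 at 2-fold, and 584 and 511 at 5-fold. In the vestibular system they were 901 and 971, 672 and 730, 3017 and 3142, and 942 and 874 in the same order. Between cochlear and vestibular HCs they were 295 and 392 with a floor of 50, 189 and 244 with a floor of 100, 294 and 396 with a pseudocount of 20, 115 and 163 with a pseudocount of 100, 1347 and 1343 at 2-fold, and 166 and 273 at 5-fold. Between the ENSC libraries they were 450 and 517 with a floor of 100, 298 and 361 with a pseudocount of 100, 2213 and 2213 at 2-fold, and 393 and 411 at 5-fold, with 656 higher at a pseudocount of 20 and 629 lower after the length and GC correction. A raised floor, a pseudocount or a higher threshold lowers these counts by construction.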
